A study of Mus musculus with 48 samples.

Results

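The genes described here encode the proteins of the cytosolic ribosome. They were taken by symbol: every gene named Rpl or Rps with a number and at most the letter a, l, x or y, plus Rpsa, Rplp0, Rplp1 and Rplp2. This gave 80 genes of 20718 measured, 49 of the large and 31 of the small subunit. The rule uses symbols and no measured value, but it was set with earlier results of these data known. Fau, Rpl22l1, Rpl7l1 and Rpl36al, which also encode ribosomal proteins or close paralogs, fall outside the symbol rule and are given separately.

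The study measured RNA with microarrays in male C57BL/6J mice held on a 12 h light and 12 h dark cycle. The mice themselves ate normal diet and were given faecal transplants. Donor mice had eaten High Fat food (HF), Ketogenic food (KD) or Normal Chow (NC). Liver and gut (labelled DI, an abbreviation the labels do not expand) were taken at ZT12 and ZT0, the times at which the dark and the light phase conventionally begin. With 4 arrays for every combination there were 12 groups and 48 arrays. Every recipient received a transplant, so no group shows mice without one, and the donors' own tissues were not analysed here. The labels mention germ free mice without tying them to these arrays, and they give the mice as age-matched without an age. Nothing beyond the titles says that the arrays of a group came from separate animals, so p-values measure the spread between these arrays.

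A ribosome reads mRNA on its small subunit and joins amino acids on its large subunit, and each subunit carries ribosomal RNA with one copy of most of its proteins. Cells spend much of their transcription on these parts, and in mammals the mRNAs of ribosomal proteins commonly start with a C followed by a run of pyrimidines, the 5′ terminal oligopyrimidine (TOP) motif, through which growth signals adjust their translation. In mouse liver, ribosome production is known to follow the daily cycle of feeding.

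The first bases of the transcripts show this motif for some of the genes described below. The promoter sequences of RefSeq (assembly GRCm38.p6) covered 60 of the 80 genes, in 72 windows of 250 bases before and 50 bases from the annotated start. A C at the first base followed by at least 4 further pyrimidines stood at the start of 13 windows, 18.1% of the 72, against 2.51% of 32851 windows of all genes. Only genes with such a match are shown. Among them, Rpl28 and Rps27 were chosen as higher at ZT12 in liver and Rps6, Rps10 and Rpl35 as lower. Rplp2 was lower in gut, and Rps15a differed between its own clusters. Each line gives 15 bases before the annotated start and 15 from it, 5′ to 3′ on the coding strand, with the pyrimidine run that begins at the start in capitals.
Rpl28 (chr7:4792950-4792979, plus strand): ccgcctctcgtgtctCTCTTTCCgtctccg
Rps27 (chr3:90213634-90213663, minus strand): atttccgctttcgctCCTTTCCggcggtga
Rps6 (chr4:86857353-86857382, minus strand): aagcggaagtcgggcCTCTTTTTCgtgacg
Rps10 (chr17:27635230-27635259, minus strand): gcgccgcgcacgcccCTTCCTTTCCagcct
Rpl35 (chr2:39005117-39005146, minus strand): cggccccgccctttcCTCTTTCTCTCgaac
Rplp2 (chr7:141447636-141447665, plus strand): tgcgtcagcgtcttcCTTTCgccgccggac
Rps15a (chr7:118116133-118116162, minus strand): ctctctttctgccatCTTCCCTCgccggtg
The run was 11 bases long in Rpl35 and 5 in Rplp2. Because a match was required, these lines cannot tell whether the motif goes with a change over time. Rpl13a and Rps2, described below as lower at ZT12, had a promoter window without a match. The letters are a description of the annotated start, and a gene without a match here may start elsewhere.

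Other words in the same windows were searched on both strands and may overlap one another. CCGGAAG, a word bound by ETS family factors, occurred in 36.1% of the 72 windows, against 8.86% of all windows. CACGTG, the E-box word bound by MYC and by the clock factors CLOCK and BMAL1, occurred in 11.1%, against 7.15%. TTATGTAA, bound by the PAR bZIP factors DBP, TEF and HLF, occurred in 0 of the 72 windows, against 0.938% of all windows.

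Values are probe brightness on the array, summarised by the authors as PLIER intensities for transcript clusters, a cluster being a set of probes placed on one transcript. Array medians over clusters were 88.2 to 104.4 in liver and 124.9 to 135.8 in gut. Levels are given as log2(intensity + 16) after quantile normalisation, within each tissue unless both are compared. Since brightness depends on the probes, one gene's level is not set against another's. The 80 genes had 399 clusters: 15 genes had 1 cluster, 32 had 5 or more, and Rpl29 had 29. Many lie on processed copies of the gene. In every array, 23 clusters had values equal to another of the 399 clusters, so transcripts of such copies cannot be told apart. The brightest cluster stood for each gene, and it was the same cluster in both tissues for 70 of the 80. The labelled tissues showed their defining genes. Of 12 hepatocyte markers 11 were higher in liver than in gut, while 11 of 12 enterocyte, all 7 measured goblet cell and all 7 Paneth cell markers were lower in liver.

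Deposited intensities of the members spanned a wide range, and their median was 1820 in liver and 3115 in gut. Rpl3l and Rpl39l, paralogs of Rpl3 and Rpl39 known from muscle and from testis, had mean intensities of 45.1 and 46.0 in liver, and of 51.4 and 43.9 in gut.

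Most ribosomal protein transcripts were lower in liver than in gut. With all 48 arrays normalised together and the difference averaged over the 6 groups of donor diet and time, 73 of the 80 genes were lower in liver and 5 higher at an adjusted p below 0.05 (limma, Benjamini-Hochberg over 20718 genes). Of all genes 86.4% were called, 34.3% lower and 52.0% higher in liver, so the share of members called lower, 91.2%, stood above the share of all genes. The median difference, liver minus gut on the log2 scale, was -0.47 over the members and 0.10 over all genes. Both subunits took part: 43 of 49 large subunit genes (median -0.42) and 30 of 31 small subunit genes (median -0.53) were lower in liver. In bulk tissue, fewer cells of a type and less RNA per cell cannot be told apart.

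**Figure D1:**
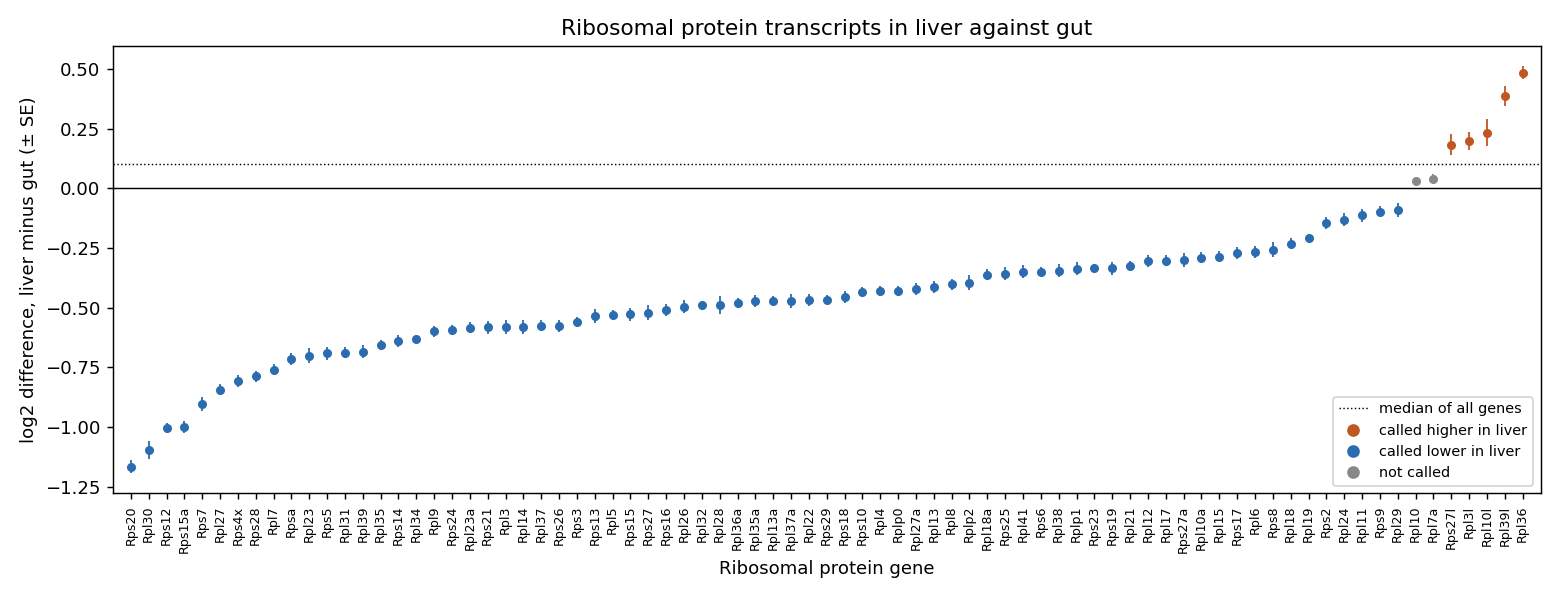
Log2 difference in level, liver minus gut, for 79 of the 80 ribosomal protein genes (points, bars are the SE of the limma fit over 48 arrays, averaged over donor diets and times), ordered by size along the horizontal axis. Blue points were called lower and orange points higher in liver; 72 points are blue, and the dotted line is the median of all genes at 0.10.

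Rps20, a protein of the head of the small subunit, had the largest deficit in liver. Its log2 level was 9.23 to 9.74 (median 9.50) in the 24 liver arrays and 10.53 to 10.84 (median 10.67) in the 24 gut arrays, a difference of -1.17 ± 0.026 (SE, adjusted p = 2.5e-35). The tissues did not overlap for Rps20. The large subunit gene Rpl30 had 9.07 to 9.71 (median 9.32) in liver and 10.27 to 10.61 (median 10.45) in gut, a difference of -1.10 ± 0.037 (adjusted p = 1.9e-28). The small subunit gene Rps12 had 11.04 to 11.41 in liver and 12.08 to 12.26 in gut, a difference of -1.004 ± 0.022 (adjusted p = 5.1e-36). For all 3 genes the highest liver array lay below the lowest gut array. Rps15a (-1.002 ± 0.025), Rps7 (-0.90 ± 0.029) and Rpl27 (-0.84 ± 0.023) came next. The value of Rps15a depends on its cluster and was -0.74 with all its clusters averaged. All liver arrays lay below all gut arrays for 55 of the 80 genes, which was so for 15.4% of all genes, and above them for Rpl36 alone, against 15.5% of all genes. Of the 80 genes, 73 were lower in liver in each of the 6 groups of donor diet and time taken singly. In the single groups 68 to 71 members were called lower, where 27.1% to 28.2% of all genes were called lower.

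The genes with named roles followed the majority. The stalk of the large subunit, which recruits translation factors, is built of Rplp0, Rplp1 and Rplp2, with differences of -0.43, -0.34 and -0.40. Rpsa, known also as a laminin receptor precursor, differed by -0.72. Rpl5, which binds 5S ribosomal RNA and with Rpl11 holds the p53 regulator MDM2, differed by -0.53, and Rpl11 by -0.11. Rps6, the target of S6 kinase, differed by -0.35. All of these passed the test.

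The members called higher in liver were Rpl36 and the paralogs Rpl39l, Rpl10l, Rpl3l and Rps27l. Rpl36, a large subunit protein, had 10.51 to 10.78 (median 10.64) in liver and 9.97 to 10.39 (median 10.16) in gut, a difference of 0.48 ± 0.027 (adjusted p = 1.8e-20). Its liver arrays all lay above its gut arrays. The differences of the paralogs were 0.39 ± 0.043 for Rpl39l, 0.23 ± 0.055 for Rpl10l, 0.20 ± 0.037 for Rpl3l and 0.18 ± 0.044 for Rps27l. Their arrays overlapped between the tissues, and probes on such paralogs can also bind the transcript of the main gene. The main genes Rpl3 (-0.58), Rpl39 (-0.68) and Rps27 (-0.52) were lower in liver, while Rpl10 (0.03 ± 0.020) and Rpl7a (0.04 ± 0.020) did not pass.

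The direction of a small difference between tissues depended on scaling. Without the quantile step the median of all genes was -0.26 in place of 0.10, and the calls of all genes were 22.4% higher and the rest lower in liver, against 60.3% higher with it. The members were then at a median of -0.76, with 78 called lower and 1 higher. Measured from the median of all genes, they stood at -0.57 with the quantile step and -0.50 without it. Under that scaling Rpl10l (-0.14), Rpl3l (-0.14) and Rps27l (-0.16) were lower in liver, and Rpl39l was at 0.05 and no longer called. Over clusters without the quantile step, 388 of the 399 were below 0, and 77 of the 80 genes had every cluster below 0.

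Lists of related genes are read against the 34.3% of all genes called lower and the 52.0% called higher in liver. Of 19 genes for elongation factors and other TOP mRNAs, 14 were lower and 2 higher in liver, with a median of -0.23. They included Gnb2l1, the scaffold RACK1 of the small subunit (-0.75), Npm1, a nucleolar chaperone (-0.67), and Hnrnpa1, an RNA-binding protein (-1.60). Of 35 initiation factors 10 were lower and 18 higher, of 65 ribosome biogenesis genes 16 were lower and 34 higher, and of 75 genes for mitochondrial ribosomal proteins 15 were lower and 48 higher, the last with a median of 0.27. The initiation and biogenesis lists were near the shares of all genes, and without the quantile step most calls of all genes turned to lower in liver. Of the ribosomal protein genes outside the symbol rule, Fau (-0.69) and Rpl22l1 (-0.57) were lower and Rpl36al (0.21) and Rpl7l1 (0.63) higher in liver.

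Between the times, the liver showed a small fall of many members at ZT12. Averaged over the donor diets, 36 of the 80 genes were lower and 2 higher at ZT12 than at ZT0 (limma, adjusted p below 0.05). Of all genes 28.3% were called, 15.1% lower and 13.2% higher, against 45.0% of the members lower and 2.5% higher. The median difference, ZT12 minus ZT0 on the log2 scale, was -0.08 over the members and 0.01 over all genes, and single members lay between -0.22 and 0.18. The fall touched 22 of 49 large and 14 of 31 small subunit genes, with medians of -0.09 and -0.08. For comparison of size, 0 members had all 12 ZT12 arrays below all 12 ZT0 arrays, which 1.63% of all genes had.

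**Figure D2:**
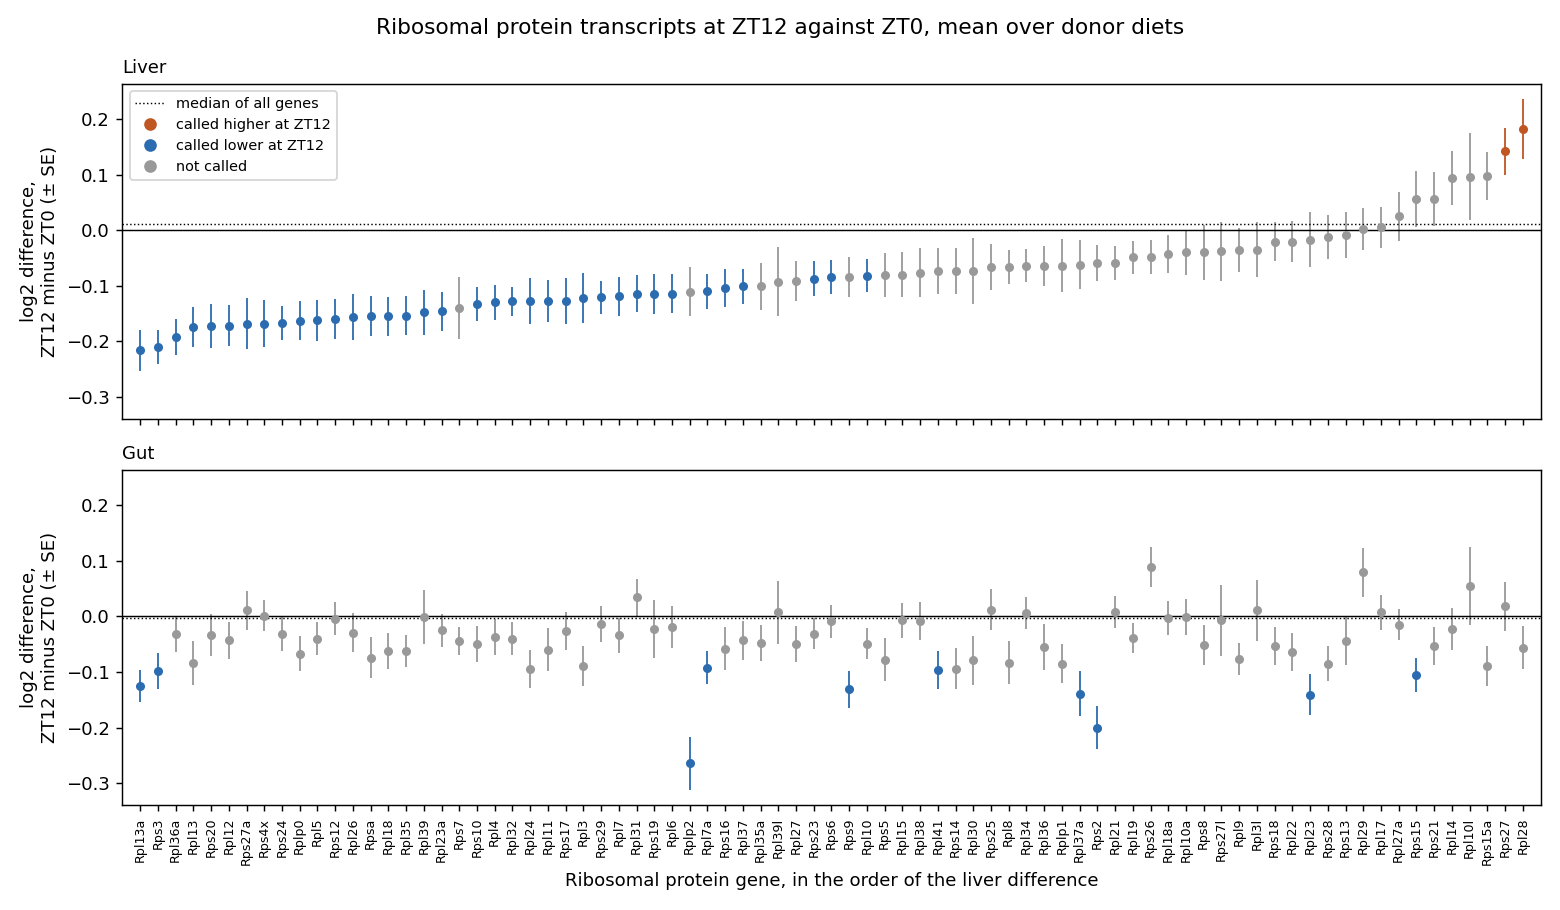
Log2 difference in level, ZT12 minus ZT0, averaged over donor diets, for 79 of the 80 ribosomal protein genes in liver (top) and gut (bottom), in the order of the liver difference (points, bars are the SE of the limma fit over 24 arrays a tissue). Blue and orange points passed the test as lower and higher at ZT12: 36 and 2 in liver, 10 and 0 in gut.

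Rpl13a, a large subunit protein that in human cells also acts outside the ribosome in the GAIT complex, had the largest fall. Its log2 level in liver was 11.40 to 11.70 (median 11.53) at ZT12 and 11.68 to 11.84 (median 11.75) at ZT0, a difference of -0.22 ± 0.037 (SE, adjusted p = 8.8e-05). The ranges met only at their edges. Rps3, which lines the path where mRNA enters the small subunit, had 10.21 to 10.36 (median 10.28) at ZT12 and 10.36 to 10.61 (median 10.48) at ZT0, a difference of -0.21 ± 0.030 (adjusted p = 9e-06). The large subunit gene Rpl36a had 10.03 to 10.27 (median 10.15) at ZT12 and 10.25 to 10.42 (median 10.36) at ZT0, a difference of -0.19 ± 0.032 (adjusted p = 5.8e-05). Both genes were thus lower at ZT12 with barely any overlap. The next were Rpl13 (-0.18 ± 0.036), Rps20 (-0.17 ± 0.040) and Rpl12 (-0.17 ± 0.037). Rpl12 missed the threshold (-0.10, adjusted p = 0.051) when all its clusters were averaged.

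Of the genes with named roles, Rplp0 (-0.16), Rpsa (-0.16), Rpl5 (-0.16), Rpl11 (-0.13) and Rps6 (-0.08) fell in liver. Rplp1 (-0.06, adjusted p = 0.34) and Rplp2 (-0.11, adjusted p = 0.06) did not pass. Rpl3, which shapes the peptidyl transferase site (-0.12), Rpl10, which joins the subunit late (-0.08), and Rpl39, which lines the exit tunnel (-0.15), also fell. Their paralogs Rpl3l (-0.04), Rpl10l (0.10) and Rpl39l (-0.09) did not pass, and neither did Rps27l (-0.04).

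Rpl28 and Rps27 went the other way. Rpl28, of the large subunit, had 12.07 to 12.38 (median 12.27) at ZT12 and 11.82 to 12.36 (median 12.05) at ZT0, a difference of 0.18 ± 0.054 (adjusted p = 0.013). Without the quantile step, all 5 of its clusters were higher at ZT12, by 0.20 to 0.21. Clusters of one gene can share probe sequences, so their agreement is not separate support. Rps27, a zinc finger protein of the small subunit, had 10.50 to 10.72 (median 10.62) at ZT12 and 10.26 to 10.64 (median 10.49) at ZT0, a difference of 0.14 ± 0.042 (adjusted p = 0.013). The times overlapped for both genes, and the ZT0 arrays were widely spread.

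The clusters of a gene mostly ran together. Without the quantile step, 331 of the 399 clusters were lower at ZT12 in liver, and 62 genes had every cluster below 0, 7 every cluster above 0 and 11 clusters on both sides. Rps15a, of the small subunit, was one of the 11: its brightest cluster in liver differed by 0.08, while its other clusters differed by -0.19 and -0.17. That brightest cluster also stood apart between the tissues, at -0.56 against -1.35 and -1.36 for the others. Both the time value printed for Rps15a in liver, 0.10 ± 0.043 (adjusted p = 0.095), and its tissue value rest on the choice of cluster.

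**Figure D3:**
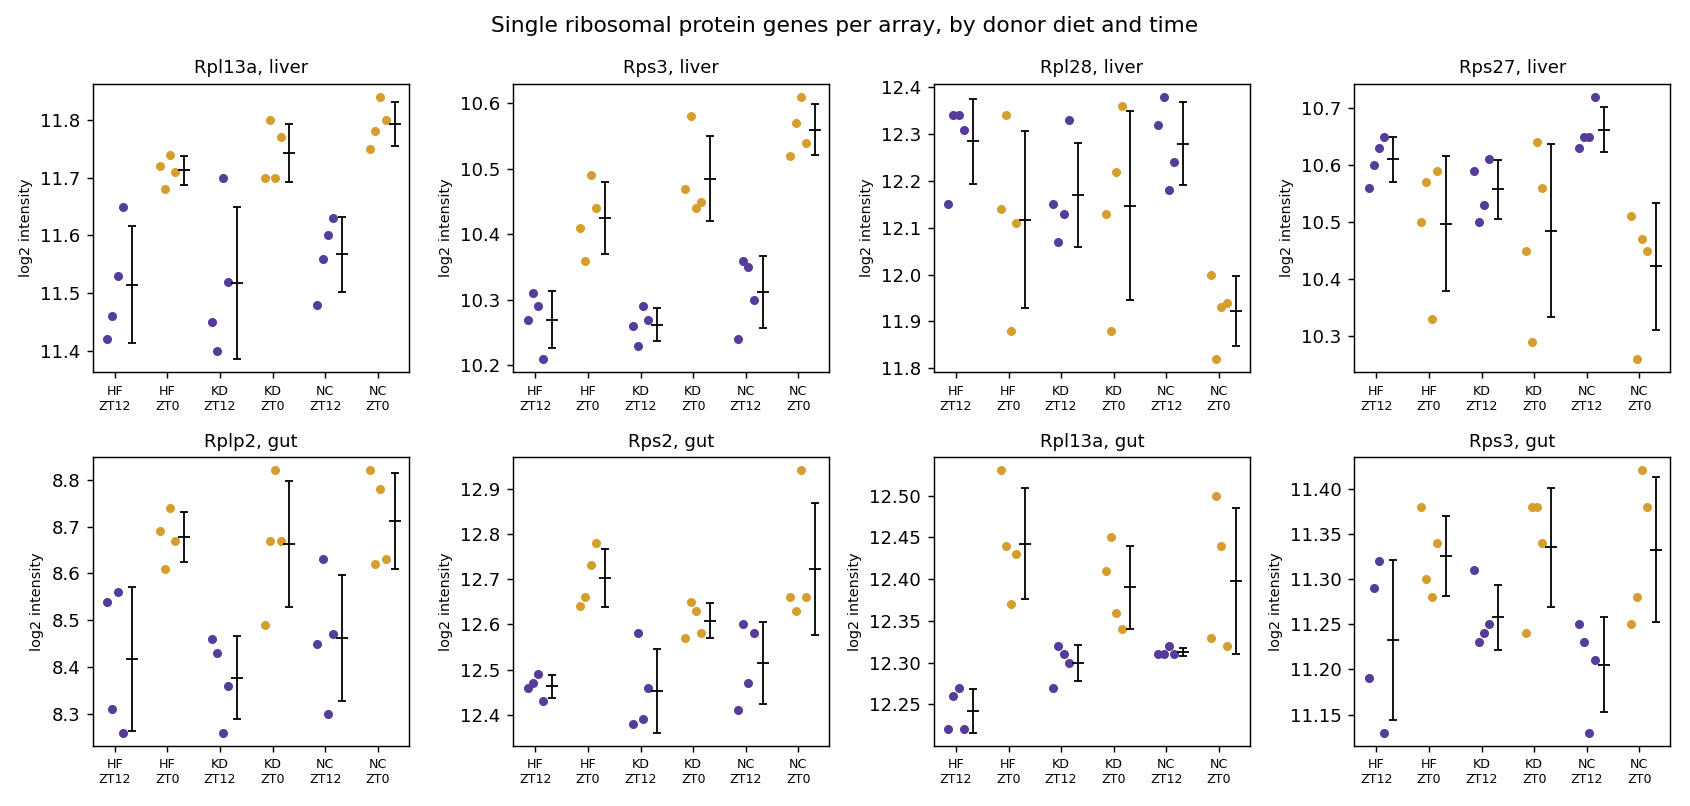
Log2 intensity per array for single genes in liver (top: Rpl13a, Rps3, Rpl28, Rps27) and gut (bottom: Rplp2, Rps2, Rpl13a, Rps3), by donor diet (HF, KD, NC) and time. Purple points are ZT12 and yellow points ZT0 arrays, 4 a group, with the mean and SD in black beside them; the vertical scale differs between panels and does not start at 0. In liver all Rps3 points at ZT12 lie at or below 10.36.

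Taken within one donor diet the liver fall was seen in fewer genes, on 4 arrays a time. In HF recipients 2 members were lower and 0 higher at ZT12, where 7.85% of all genes were called, 4.69% lower and 3.16% higher. In KD recipients 7 were lower and 0 higher, where 8.65% of all genes were called, 5.31% lower and 3.34% higher. In NC recipients 7 were lower and 2 higher, where 9.09% of all genes were called, 4.86% lower and 4.23% higher. At an unadjusted p under 0.05 the members numbered 26 with HF, 22 with KD and 25 with NC donors. At that threshold all genes numbered 4539, 4430 and 4680 of 20718, so the members' shares stood only somewhat above the background. The shares of members called lower, 2.5% with HF donors and 8.75% with KD and with NC donors, were below the background in one group and above it in both others. The size of the shift was not smaller in the HF group: the median over members was -0.11 with HF, -0.09 with KD and -0.09 with NC donors, with 71, 71 and 62 members below 0. Without the dimmest 25% of genes the HF count was 7, and without the quantile step it was 1. It was 0 when only the groups compared were fitted, and 0 with the replicate number as a block. Of the 80 genes, 58 were below 0 and 3 above 0 in all 3 donor groups, 14 were called in at least one and 0 in all. The same counts were not taken over all genes, so these describe the members only.

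Single arrays moved these counts. Leaving out HF ZT0 replicate 2 or 5, or HF ZT12 replicate 7, 9 or 10, brought the HF count to 0. It became 1 on leaving out HF ZT0 replicate 4, 4 on leaving out HF ZT12 replicate 13, and 5 on leaving out KD ZT0 replicate 7. For KD recipients, leaving out replicate 3 or 5 at ZT0 gave 3, and leaving out replicate 8, 10 or 13 at ZT12 gave 2. For NC recipients, leaving out replicate 4 or 5 at ZT0 or replicate 7 at ZT12 gave 2, and at ZT12 leaving out replicate 8 gave 1, replicate 11 gave 4 and replicate 13 gave 5. The count averaged over diets stayed between 33 and 42 whichever array was left out.

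Rps3 and Rpl28 show the values behind this. Rps3 in liver had 10.24, 10.30, 10.35 and 10.36 at ZT12 in NC recipients, against 10.52, 10.54, 10.57 and 10.61 at ZT0, a difference of -0.25 ± 0.052 (adjusted p = 0.0024). In KD recipients it had 10.23, 10.26, 10.27 and 10.29 at ZT12, against 10.44, 10.45, 10.47 and 10.58 at ZT0 (-0.23 ± 0.052, adjusted p = 0.0062). The times were apart in both groups, but how many of all genes are so separated with 4 arrays a time was not counted. Rpl28 in NC recipients had 12.18, 12.24, 12.32 and 12.38 at ZT12, against 11.82, 11.93, 11.94 and 12.00 at ZT0, a difference of 0.35 ± 0.093 (adjusted p = 0.016). In KD recipients it had 12.07, 12.13, 12.15 and 12.33 at ZT12, against 11.88, 12.13, 12.22 and 12.36 at ZT0. Rpl28 was thus apart between the times with NC donors and overlapped with KD donors. The KD minus NC test of that change gave -0.33 ± 0.131, which did not pass (adjusted p = 1.0). The NC difference of Rpl28 was 0.32 on leaving out replicate 4 at ZT0 or replicate 8 at ZT12, and then missed the threshold (adjusted p = 0.061 and 0.06).

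In gut fewer members passed the test, and most of those were lower at ZT12. Averaged over donor diets, 10 of the 80 genes were lower and 1 higher at ZT12, where 21.5% of all genes were called, 11.2% lower and 10.3% higher. The members' shares, 12.5% lower and 1.25% higher, stood near the background for falls and below it for rises. The median difference was -0.04 over the members and 0.00 over all genes. Of the members, 43 were below 0 in all 3 donor groups and 5 above 0.

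The largest change in gut was that of Rplp2, of the ribosomal stalk. Its log2 level was 8.26 to 8.63 (median 8.44) at ZT12 and 8.49 to 8.82 (median 8.67) at ZT0, a difference of -0.26 ± 0.048 (adjusted p = 0.00045). The small subunit gene Rps2 had 12.38 to 12.60 (median 12.46) at ZT12 and 12.57 to 12.94 (median 12.65) at ZT0, a difference of -0.20 ± 0.038 (adjusted p = 0.00074). The times overlapped in part for both genes, with the Rplp2 ranges sharing 8.49 to 8.63. Rpl13a had 12.22 to 12.32 (median 12.30) at ZT12 and 12.32 to 12.53 (median 12.42) at ZT0, a difference of -0.12 ± 0.029 (adjusted p = 0.0034). The others were Rpl23 (-0.14), Rpl37a (-0.14), Rps9 (-0.13), Rps15 (-0.10), Rps3 (-0.10), Rpl41 (-0.10) and Rpl7a (-0.09).

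Within one donor diet the gut gave almost no calls. HF recipients had 2 members lower, Rpl13a (-0.20 ± 0.049, adjusted p = 0.027) and Rps2 (-0.24 ± 0.066, adjusted p = 0.049), where 3.32% of all genes were called, 1.83% lower and 1.49% higher. Rps2 in HF recipients had 12.43, 12.46, 12.47 and 12.49 at ZT12, against 12.64, 12.66, 12.73 and 12.78 at ZT0. The times did not overlap, but how many of all genes separate in groups of 4 arrays was not counted. That count was 0 on leaving out HF ZT0 replicate 1 or 5 or HF ZT12 replicate 8 or 12, and 1 on leaving out any one of another 14 of the 24 gut arrays. KD and NC recipients had 0 members called by limma. Of all genes 3.98% were called with KD donors (1.87% lower, 2.11% higher) and 2.38% with NC donors (1.17% lower, 1.22% higher). At an unadjusted p under 0.05 the members numbered 5 with KD and 10 with NC donors, against 4286 and 3088 of all 20718 genes. In both groups the members' share was the smaller. Leaving out replicate 1 of KD at ZT0, or replicate 12 of HF at ZT12, gave 1 call with KD donors, that of Rplp2.

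**Figure D4:**
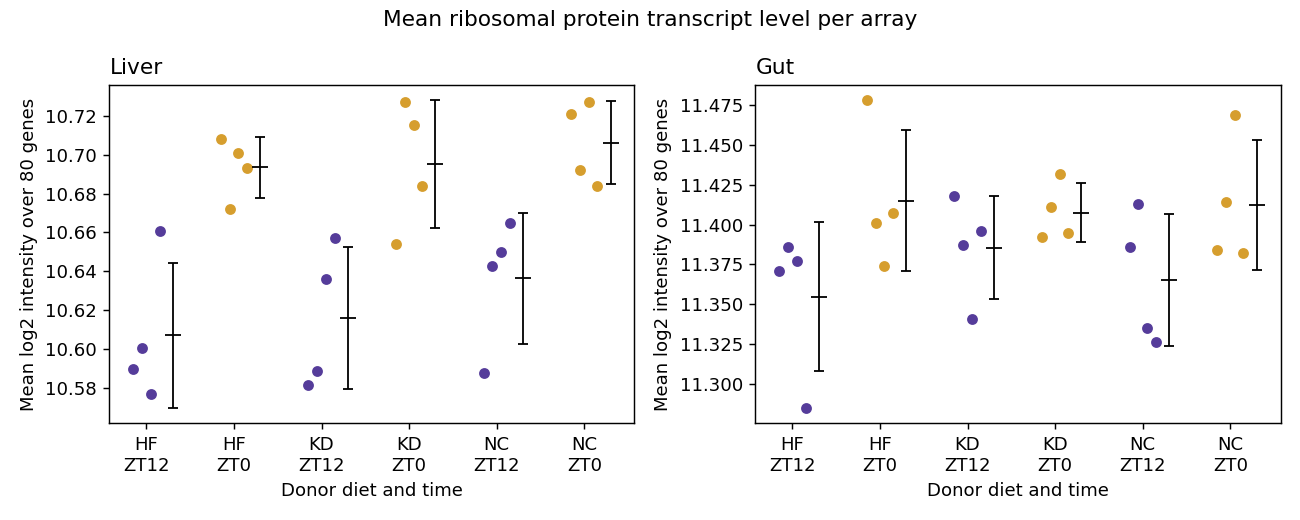
Mean log2 intensity over the 80 ribosomal protein genes in each array, by donor diet (HF, KD, NC) and time, in liver (left) and gut (right), each tissue normalised on its own. Purple points are ZT12 and yellow points ZT0 arrays, with the mean and SD of the 4 arrays in black; liver arrays lie at 10.577 to 10.665 at ZT12 and 10.654 to 10.727 at ZT0.

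The mean over the 80 genes gives the same picture per array. In liver it was 10.577 to 10.665 (median 10.619) at ZT12 and 10.654 to 10.727 (median 10.697) at ZT0, so that the times met only at their edges. In gut it was 11.285 to 11.418 (median 11.381) at ZT12 and 11.374 to 11.478 (median 11.404) at ZT0, with a wide overlap. By donor diet in liver, the means at ZT12 and ZT0 were 10.607 ± 0.037 and 10.694 ± 0.016 with HF donors, 10.616 ± 0.036 and 10.695 ± 0.033 with KD donors, and 10.636 ± 0.034 and 10.706 ± 0.021 with NC donors (SD, n = 4 each). These means are descriptions and were not tested.

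Of the 36 members called lower at ZT12 in liver and the 10 in gut, 3 were called in both: Rpl13a, Rps3 and Rpl7a. The matching count over all genes was not taken, and a shared fall was not tested. A direct test of the difference between the tissues in the change over time was added after the data had been seen. It called 11 members, 8 with a lower and 3 with a higher change in liver than in gut, where 17.6% of all genes were called, 8.76% lower and 8.8% higher. The members' 13.8% was below that background. Rps27a, which is made fused to ubiquitin, changed by -0.17 in liver and 0.01 in gut (difference -0.18 ± 0.058, adjusted p = 0.022). Rps4x, the X-linked small subunit gene, changed by -0.17 in liver and 0.00 in gut (difference -0.17 ± 0.050, adjusted p = 0.011). Rpl28 changed by 0.18 in liver and -0.06 in gut (difference 0.25 ± 0.071, adjusted p = 0.01). Rps2 changed by -0.06 in liver and -0.20 in gut (difference 0.20 ± 0.052, adjusted p = 0.0052). The changes were fitted with each tissue normalised on its own, and the differences with both tissues normalised together. A difference therefore need not equal the gap between the printed changes, and for Rps2 it was larger than that gap. Without the quantile step the brightest Rps2 cluster changed by -0.04 in liver and -0.18 in gut, again a smaller gap. For Rps27a and Rps4x the fall was in liver, and for Rps2 it was in gut. Without the quantile step the calls of Rps27a (-0.165, adjusted p = 0.052) and Rpl36a (-0.128, adjusted p = 0.077) were lost, and with an offset of 1 that of Rps15 (0.155, adjusted p = 0.051).

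Lists of other genes of the ribosome and its supply are given beside the shares of all genes, 13.2% higher and 15.1% lower at ZT12 in liver and 10.3% higher and 11.2% lower in gut. None of these lists was tested against the members. In liver, 15 of 65 ribosome biogenesis genes were higher and 5 lower at ZT12, with a median of 0.03. They included Riok2, a kinase of small subunit maturation (0.56 ± 0.051, adjusted p = 1.4e-08), Nop2 (0.38) and Nop56 (0.37), which modify ribosomal RNA, and Polr1a, the largest subunit of RNA polymerase I (0.35). In gut 16 of the 65 were lower and 0 higher, with a median of -0.09. The fallers included Utp14a (-0.22), Utp20 (-0.22) and Emg1 (-0.22), factors of small subunit assembly, and Polr1a (-0.21). Polr1a was thus higher at ZT12 in liver and lower in gut. For mitochondrial ribosomal proteins, 9 of 75 were higher and 11 lower in liver, near the shares of all genes, and 0 were higher and 26 lower in gut, with a median of -0.10 there.

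The counts of translation factors in liver were close to the shares of all genes. Of 35 initiation factors in liver, 6 were higher at ZT12, among them Eif4ebp3, a repressor of the cap-binding protein (0.73 ± 0.145, adjusted p = 0.00048), and 7 lower, among them Eif1a (-0.61 ± 0.065, adjusted p = 1.4e-07). In gut 7 of the 35 were lower and 0 higher. Of 19 elongation and other TOP mRNA genes, 2 were higher and 3 lower in liver and 6 lower in gut. Eef1g, a subunit of the elongation factor that delivers tRNA, was lower in both tissues (-0.28 in liver, -0.27 in gut), whereas the poly(A)-binding gene Pabpc4 was at 0.24 in liver and -0.13 in gut. Outside the symbol rule, Rpl36al (-0.19 in liver, -0.12 in gut) fell in both tissues and Rpl7l1 (-0.19) in liver. Of 29 growth and TOP regulators, 6 were higher and 8 lower in liver, among them Larp1, which binds TOP mRNAs (-0.27), and Myc, which drives ribosome production (1.24 ± 0.328, adjusted p = 0.006). In gut 5 of the 29 were higher and 5 lower.

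Some markers of other cell types also differed between the times, where 28.3% of all genes were called in liver and 21.5% in gut. Several lists below, such as the hepatocyte and macrophage markers in liver and the smooth muscle markers in gut, were near those shares. Of 10 endothelial markers, 8 were lower at ZT12 in liver, where their summed intensity was 3240 to 4420 at ZT12 and 3650 to 5400 at ZT0. In gut 7 of the 10 were lower, with sums of 1580 to 2300 at ZT12 and 1860 to 2620 at ZT0. Of 9 fibroblast and stellate cell markers 4 were lower in each tissue. Hepatocyte markers in liver summed to 119000 to 130000 at ZT12 and 118000 to 126000 at ZT0, with 1 of 12 higher and 2 lower. In gut, 4 of 12 crypt and proliferation markers were lower (sums of 6470 to 9510 at ZT12 and 7480 to 11600 at ZT0) and 4 of 12 enterocyte markers higher (63600 to 83200 at ZT12 and 53600 to 73200 at ZT0). B cell markers in gut ranged from 581 to 6690 at ZT12 and 601 to 7100 at ZT0, and 0 of 9 were called by limma. Of the other lists, macrophage markers (10) had 0 higher and 3 lower in liver and 2 higher and 1 lower in gut, smooth muscle markers (7) had 1 higher and 3 lower in liver and 1 lower in gut, and pancreatic acinar markers (11) had 4 higher in liver and 0 called in gut. A mean intensity under 16 was seen for 1 crypt marker and 1 Paneth cell marker, both in liver. The part of these cell types in the ribosomal protein differences was not tested.

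Donor diet left the ribosomal protein transcripts without a call. In 20 comparisons of HF, KD and NC donors (each pair at each time in each tissue, HF and KD against NC over both times, and the change of these over the day), 0 of the 80 members passed by limma. Of all genes 0.0% passed in 16 of the comparisons and 0.00483%, 1 gene, in 4, so the members' count matched a background of nearly no calls. At an unadjusted p under 0.05 the members numbered 0 to 4 in a comparison, and all genes 423 to 2096. The HF and KD comparisons share their NC arrays.

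**Figure D5:**
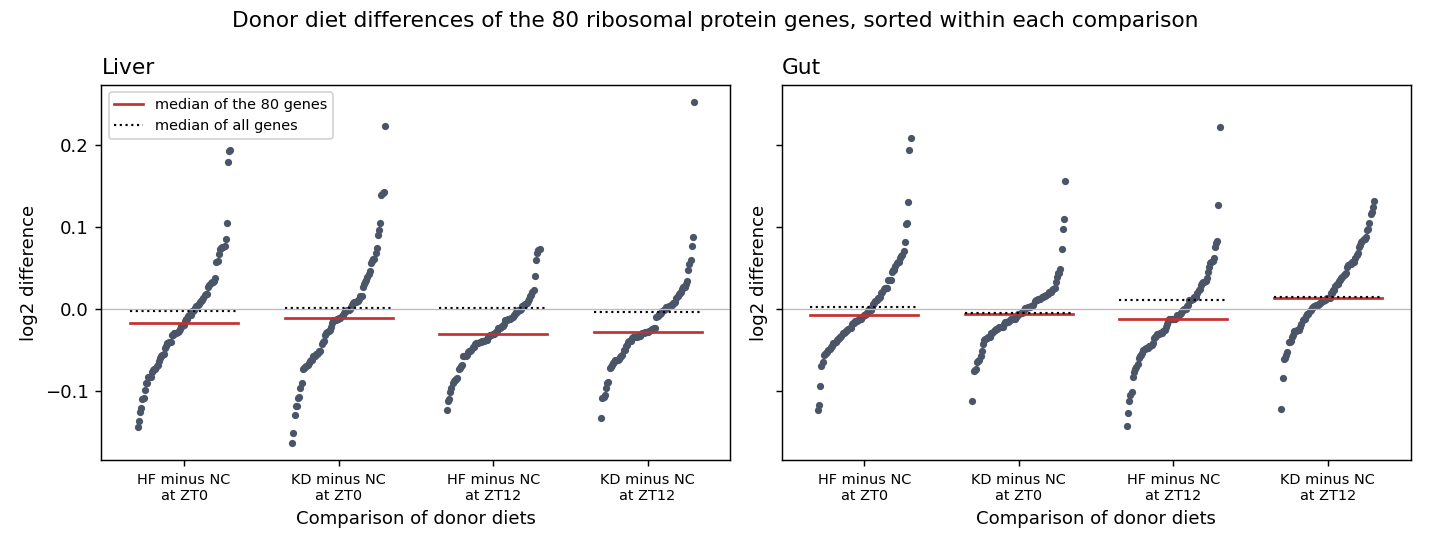
Log2 differences between donor diets for the 80 ribosomal protein genes (points, sorted within each comparison) at each time in liver (left) and gut (right). The red line is the median of the 80 genes and the dotted line the median of all genes; no point passed the test, and the red lines lie between -0.04 and 0.03.

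The sizes were small. The median over the members lay between -0.04 and 0.03 on the log2 scale in all 20 comparisons, and single members between -0.33 and 0.26. In liver at ZT0, Rps3 had 10.36, 10.41, 10.44 and 10.49 with HF donors, against 10.52, 10.54, 10.57 and 10.61 with NC donors. These groups did not overlap, and the difference was -0.14 ± 0.052 with an adjusted p of 0.98. Rpl28 in liver at ZT0 had 11.88, 12.13, 12.22 and 12.36 with KD donors, against 11.82, 11.93, 11.94 and 12.00 with NC donors, a difference of 0.22 ± 0.093 (adjusted p = 0.93). Those groups overlapped. In gut over both times, HF minus NC was -0.11 ± 0.045 for Rps26, at the mRNA exit of the small subunit (adjusted p = 0.41), and 0.21 ± 0.086 for Rpl10l (adjusted p = 0.42). An SE of that size leaves differences of 0.1 to 0.2 undecided for single genes.

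The p-values of the authors' deposited tables, for the 8 comparisons with NC donors at one time, were adjusted here over the same 20718 genes. By the authors' deposited tables, 0 members passed in any of the 8, and a single member at most had an unadjusted p under 0.05. The ratios of group means for members in the authors' deposited tables ran from 0.875 to 1.24. Over all genes, the authors' deposited tables gave between 0 and 613 calls, the most in gut for KD against NC donors at ZT12. By limma, not by the authors' p-values, the lists of translation, biogenesis and mitochondrial ribosome genes had 0 calls in these comparisons. In the same limma fits at most 1 of all 20718 genes was called, so these counts say little about the lists.

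From array to array within a group, the members varied together. The mean pairwise correlation of deviations from the group means was 0.135 in liver and 0.283 in gut over 24 arrays each, against 0.0045 and 0.0062 over all genes, and 0.0172 and 0.0202 over the other genes of the brightest 5%. The members share the array, its RNA and, for copies of a gene, the probe sequence, so these correlations are a description. Their spread was narrow: the median SD around the group means was 0.080 in liver and 0.071 in gut, against 0.127 and 0.125 over all genes. Over the brightest 5% of genes, members included, the median SD was 0.11 in liver and 0.105 in gut. The steadiest members were Rpl32 (0.031) and Rpl19 (0.043) in liver and Rps7 (0.036) and Rpl19 (0.044) in gut. The most variable in both tissues was Rpl10l (0.208 in liver, 0.183 in gut), with Rpl39l (0.16) and Rpl30 (0.152) also high in liver, and Rps27l (0.165), Rpl39l (0.143) and Rpl3l (0.139) in gut.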

How the data were processed

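The authors deposited PLIER intensities per transcript cluster, per the submitters' processing notes and the file headers, on a linear scale; the sources used here give neither the PLIER version nor a normalisation between arrays. Comparison tables deposited with them hold the authors' p-values and a ratio of the group means, per the file headers. The 48 arrays were grouped by tissue, donor diet and time from the labels. Intensities plus 16 were log2-transformed and quantile normalised within each tissue, or over both tissues for the tissue comparison. The brightest cluster stood for each gene. Groups were compared with limma 3.58.1 in R 4.3.3 in a fit with 18 residual degrees of freedom a tissue, or 36 over both, with Benjamini-Hochberg adjustment over 20718 genes and a threshold of 0.05. The number of arrays limits the precision. Some genes are not reported here by name. Others were named where they passed with the largest differences, by extremes of level or spread, or by role. The members and lists were chosen with earlier results of these data known. Alternatives were no quantile step, an offset of 1, leaving out the dimmest 25% of genes, averaging clusters, a replicate block, only the groups compared, and leaving out each array. Replicate numbers in the titles did not pair arrays: deviations of same-numbered arrays correlated at a mean of 0.0012 over 16 gut pairs and -0.085 over 14 liver pairs. Of 33 mouse codes in the titles, 15 occur in both tissues. Python 3.11.15, numpy 2.4.6, pandas 2.3.3 and matplotlib 3.10.9 were used for tables and plots.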

Additional observations from a re-analysis of the deposited data

Results flagged for a closer look

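Of 102 groups of 4 arrays examined, 3 held an array apart from the other arrays of its group by Dixon's gap test, which chance alone does in about 1 of 20 groups. The mean over the 80 genes was 11.285 in gut HF ZT12 replicate 12, against 11.371 to 11.386 in the other arrays of that group. Rpl36a was 10.41 in liver NC ZT0 replicate 5, against 10.36 in the others. Rps2 was 12.94 in gut NC ZT0 replicate 4, against 12.63 to 12.66 in the others.

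The change from ZT0 to ZT12, averaged over donor diets, differed between liver and gut for 11 members in a direct limma test, chosen after the data had been seen. That was 13.8% of the members, below the 17.6% of all genes called in the same test. Liver minus gut was -0.18 for Rps27a, -0.17 for Rps4x, -0.16 for Rps26, -0.15 for Rpl31, -0.15 for Rps12, -0.14 for Rpl36a, -0.13 for Rps24 and -0.11 for Rps3. It was 0.15 for Rps15, 0.20 for Rps2 and 0.25 for Rpl28.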

How the results depend on the processing

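Of the counts, that of the tissue difference stayed at 76 to 79 of 80 under all settings tried, and the counts of 0 members between donor diets stayed at 0. Rps15 in the test of tissue against time (adjusted p = 0.046) missed the threshold in many of the fits that left out an array. Leaving out one array gave 78 to 79 members called between the tissues, 8 to 14 in the test of tissue against time, 33 to 42 in liver and 8 to 14 in gut for the averaged time difference, and 0 to 0 for each donor comparison. For one donor diet it gave 1 to 11 in liver with NC, 0 to 5 with HF and 2 to 9 with KD donors, and 0 to 0 in gut with NC, 0 to 2 with HF and 0 to 1 with KD donors. Without the quantile step the liver counts were 3 (NC), 1 (HF) and 1 (KD) and the gut counts 1 (HF) and 1 (KD), and Rpl10l, Rpl3l and Rps27l turned between the tissues (-0.136, -0.143, -0.155). Without the dimmest 25% of genes the counts were 7 in liver with HF and 1 in gut with KD donors. An offset of 1 gave 1, and averaging clusters 0, in gut with HF donors. Fitting only the groups compared gave 4 (NC), 0 (HF) and 0 (KD) in liver and 0 in gut with HF donors.

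With the replicate number as a block, the liver counts over time were 0 averaged over diets and 0 with NC, HF and KD donors. The averaged median over members was -0.122, and single genes moved either way, with Rpl13a at -0.37 and Rpl36a at -0.064 averaged and Rplp0 at -0.49 with NC donors. Rpl28 (-0.172 averaged, -0.015 with NC donors) and Rps27 (-0.029 averaged) turned. The numbers did not pair arrays, and in liver the number 7 alone occurs at both times, so this fit rests on few arrays. In gut no number occurs at both times, so no blocked time difference could be fitted there. With the block, the counts between donor diets stayed at 0. With the mouse as a random block the tissue count was 78 and that of tissue against time 11. Limits: intensities give no read counts, the SE of a single gene within one donor diet leaves differences of about 0.1 log2 units undecided, copies of a gene share probes, and the labels do not give extraction or scan batches.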
